A study of Mus musculus with 12 samples.

Results

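The 52 genes described here encode pore-forming and auxiliary subunits of voltage-gated channels, and they are 52 of the 55471 genes in the count table. They were taken by gene symbol as subunits of neuronal excitability, and comprise 7 sodium channel genes, 15 calcium channel genes and 30 genes of potassium and HCN channels. Voltage-gated channels sense the membrane potential. Sodium channels carry the upstroke of the action potential, calcium channels couple depolarization to transmitter release and gene expression, and potassium channels repolarize the membrane and set firing rate. In hippocampal neurons, Kv7 channels carry the M-current that restrains repetitive firing, Kv4 channels with their KChIP subunits carry the A-type current of dendrites, and BK channels join calcium entry to repolarization.

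RNA was sequenced from primary hippocampal neurons of wild-type (WT) mice, prepared from embryos. All cultures received gapmers, antisense oligonucleotides that direct RNase H to a target RNA, at day in vitro (DIV) 7 and were collected at DIV 10. The control group received negative control gapmers and the *Neuid* KD group received gapmers against the long noncoding RNA *Neuid*, with 6 libraries in each group. The comparison asks how the channel genes differ between cultures with and without the knockdown, and since nothing in the labels says that the libraries came from separate cultures or animals, p-values measure only the spread between libraries.

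Levels are given in CPM, the reads on a gene per 1000000 reads of the library after TMM scaling, and levels of different genes are compared only as CPM per kb of exon. Control libraries held between 18002585 and 30914714 counted reads and *Neuid* KD libraries between 11152556 and 30573480. The libraries also differed in background reads, measured as the summed level of chemosensory receptor genes, which hippocampal neurons are not known to need. This sum was at least 100 CPM in 4 control and 3 *Neuid* KD libraries and under 100 CPM in 2 control and 3 *Neuid* KD libraries, and fold changes within these 7 libraries (higher background) and these 5 (lower background) are given for the channel genes that passed the test, for those taken by the rule for named genes that passed it in some alternatives and for the called genes of other lists.

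*Neuid* KD replicate 1 stood apart from the other libraries. It was the shallowest, and it was the lowest of the 6 *Neuid* KD libraries for 34 of the 52 channel genes. Control replicate 1 was the lowest of its group for 23. The background of *Neuid* KD replicate 1 was 616 CPM, and control replicates 1 and 4 had a similar level, 667 and 592 CPM. The summed level of the 52 genes ran from 3922 to 4468 CPM in control libraries (median 4225) and from 3672 to 4776 CPM in *Neuid* KD libraries (median 4678). *Neuid* KD replicate 1 gave the lowest sum of all 12, and the other *Neuid* KD libraries, at 4599 CPM or more, lay above every control library.

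*Neuid* itself (Gm10419, ENSMUSG00000072769) spanned 26.0 to 31.0 CPM in controls (median 28.3) and 6.32 to 9.55 CPM after knockdown (median 8.08). The groups did not overlap, and the log2 fold change, the base-2 logarithm of the ratio of *Neuid* KD to control, was -1.81 (edgeR adjusted p = 1.3e-10, standard error 0.0845). It was -1.74 within the libraries of higher background and -1.93 within those of lower background. Adjusted p-values are those of edgeR's quasi-likelihood test, corrected over all tested genes. The exons of *Neuid* overlap those of Gm42517 on the opposite strand, and the strand setting of the counting is not stated, so reads of the overlapping genes cannot be told apart. Of the 52 channel genes, 16 have exons that overlap another gene, 15 of them on the opposite strand, among them *Cacna1a*, *Cacna1d*, *Cacnb4* and *Kcna6*.

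In *Neuid* KD, 4 channel genes were upregulated with an adjusted p under 0.05 and a log2 fold change above 0.5, and none was downregulated past -0.5 in edgeR. They were *Kcnq3*, *Kcnip3*, *Cacna2d3* and *Cacna1c*, a potassium channel pore, a modulator of potassium channels and a pair of calcium channel subunits. In these bulk libraries, fewer cells of a type and less RNA per cell cannot be told apart, and the summed level of 12 astrocyte markers, all higher, moved with the groups from a median of 2259 to 4913 CPM. All 52 genes passed the filter on low counts and were tested, and over the 19578 tested genes of the series 2.44% were upregulated and 0.792% downregulated by the same rule. Without the fold threshold, 8 channel genes were higher, where the share over all tested genes was 6.31%, and 2 were lower, where it was 2.42%. At an unadjusted p under 0.05 in edgeR, 0 of the 52 genes were downregulated past -0.5, and DESeq2 called 0 as well. Of the 4 estimates 3 lay close to 0.5, and the count past the threshold was 1 under upper-quartile normalization. It was 2 without control replicate 1, *Neuid* KD replicate 4 or *Neuid* KD replicate 5, and 2 within the libraries of lower background. It was 3 without control replicate 2 or 6, or without *Neuid* KD replicate 1, 2, 3 or 6. The count was also 3 with a filter of 1 CPM, with replicates of the same number as blocks and within the libraries of higher background. DESeq2, 1 RUVs factor and the background covariate each gave 4, but with *Kcnh5* in place of *Cacna1c*. There the log2 fold changes were 0.72, 0.81 and 0.80 for *Kcnh5* and 0.48, 0.48 and 0.49 for *Cacna1c*. *Kcnq3* passed the threshold in all 21 alternatives. The split between higher and lower genes depended on the scaling and the test, with 8 higher and 12 lower under upper-quartile normalization, and 10 higher and 7 lower under DESeq2. Under upper-quartile normalization the median log2 fold change was -0.07 over the channel genes and -0.09 over all tested genes. Under DESeq2 these medians were -0.03 and -0.04. Shares over all tested genes are not given for these fits, so the counts cannot be read as particular to the channel genes. The 2 lower genes became 5 without *Neuid* KD replicate 1 or *Neuid* KD replicate 3 and 4 without *Neuid* KD replicate 6, and without *Neuid* KD replicate 5 1 gene was downregulated past -0.5. With the background level of each library as a covariate, 13 channel genes were higher and 8 lower, where the shares over all tested genes were 9.07% and 5.04%. The median log2 fold change of the 52 genes was -0.01, beside -0.03 over all tested genes, and 24 of the 52 estimates were above 0. *Neuid* KD libraries lay above all control libraries for 4 channel genes and below all of them for 3, where the shares over all tested genes were 4.13% and 1.57%.

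**Figure D1:**
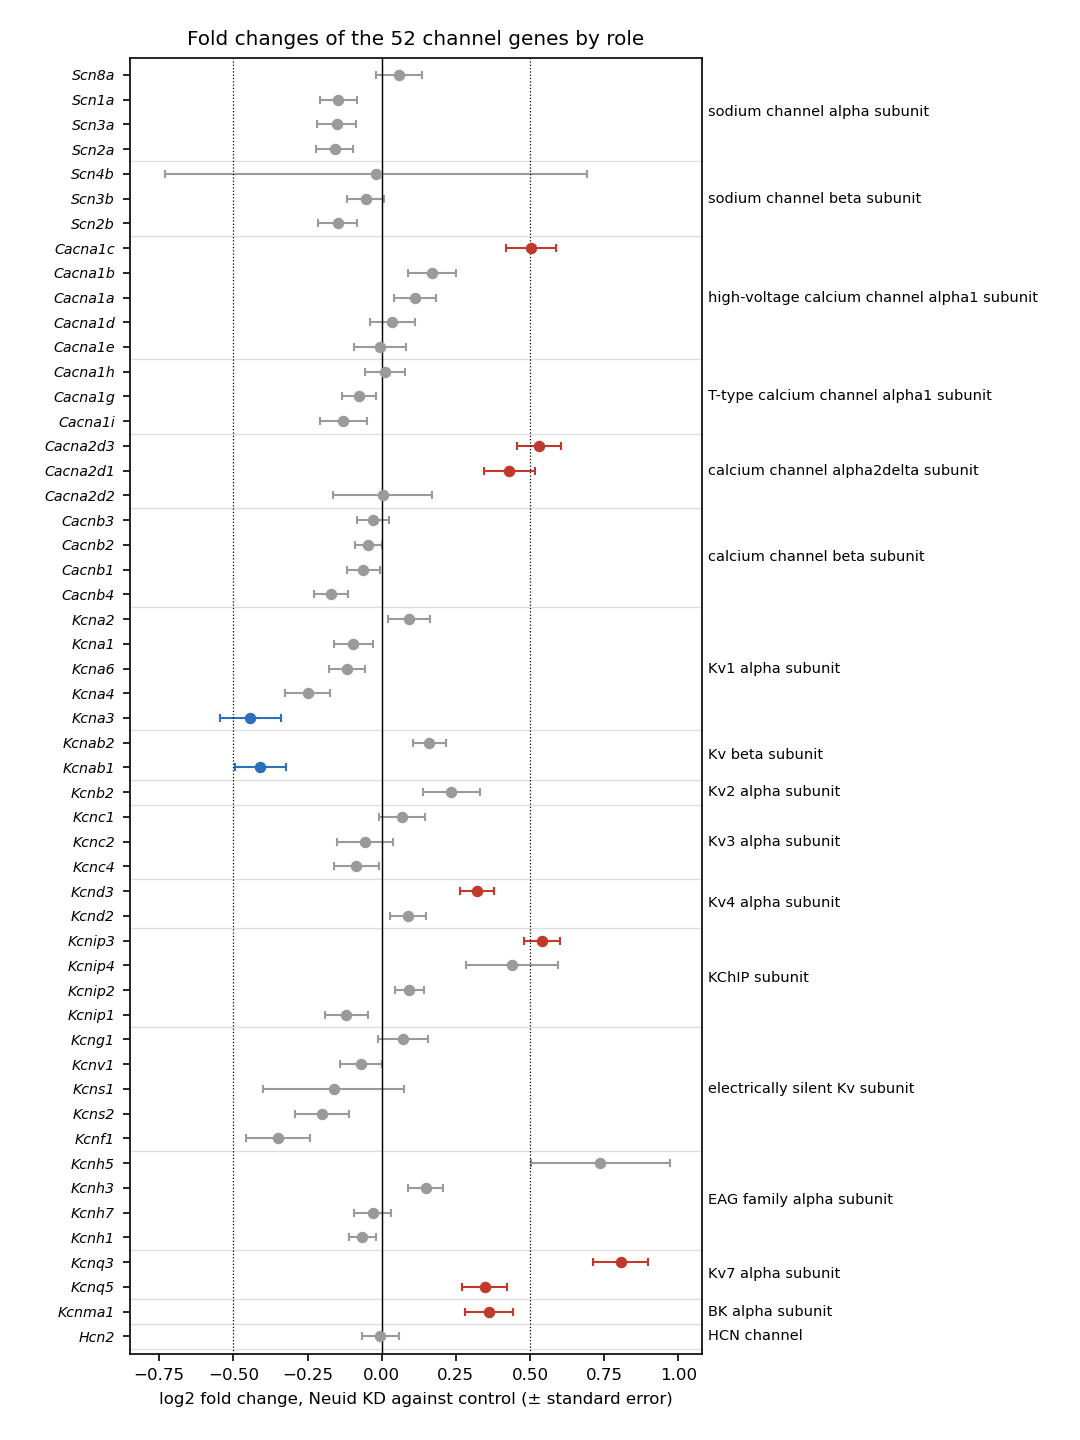
Log2 fold change of each of the 52 channel genes in *Neuid* KD against control, with the standard error as a bar, in order of role; red points are higher and blue points lower with an adjusted p under 0.05, grey points did not pass, and dotted lines mark 0.5 in each direction. The highest estimate is that of *Kcnq3* at 0.81 and the lowest that of *Kcna3* at -0.44.

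Both Kv7 genes among the 52, *Kcnq3* and *Kcnq5*, rose. *Kcnq3* encodes a pore-forming Kv7 subunit of M-channels, and lies on chromosome 15 of GRCm38 (65986387 to 66286642, minus strand, ENSMUSG00000056258). It spanned 81.5 to 102 CPM in controls (median 91.4) and 115 to 177 CPM after knockdown (median 170). All 6 libraries of the knockdown were above all controls, although *Neuid* KD replicate 1 was well below its group. Mean and SD over the 6 libraries went from 91.5 ± 9.04 CPM up to 160 ± 23.8 CPM, and the estimated log2 change was 0.81 (edgeR adjusted p = 1.2e-05, standard error 0.0938). Within the 7 libraries with at least 100 CPM of background the log2 fold change was 0.76, and within the 5 under it 0.76. *Kcnq5*, the other Kv7 member, had the higher level per length in control libraries, at 21.5 CPM per kb against 6.22 CPM per kb for *Kcnq3*. It spanned 137 to 184 CPM in controls (median 165) and 169 to 228 CPM after knockdown (median 215). The libraries above all controls were the 5 other than *Neuid* KD replicate 1, which lay inside the control range. The log2 fold change of *Kcnq5* was 0.35 (edgeR adjusted p = 0.0064), 0.34 within the libraries of higher background and 0.27 within those of lower background. Its adjusted p was 0.0585 within the former and 0.0551 without *Neuid* KD replicate 2, in a range of 7.5e-07 to 0.12 over all alternatives. An exon of *Kcnq5* overlaps Gm26580 on the opposite strand.

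Among the genes of the A-type current, *Kcnip3* and *Kcnd3* rose. *Kcnip3* encodes a calcium-binding KChIP subunit of Kv4 channels that is also known as the transcriptional repressor DREAM, and lies on chromosome 2 (127456498 to 127522094, minus strand, ENSMUSG00000079056). It spanned 18.9 to 23.0 CPM in controls (median 21.7) and 28.5 to 34.8 CPM after knockdown (median 31.1). There was no overlap between the groups, and here *Neuid* KD replicate 1 was the highest library. Mean and SD over the 6 libraries went from 21.4 ± 1.5 CPM up to 31.2 ± 2.15 CPM, and the estimated log2 change was 0.54 (edgeR adjusted p = 6.2e-06, standard error 0.0596). The estimate was 0.63 within the 7 libraries of higher background and 0.42 within the 5 of lower background, and 0.47 without *Neuid* KD replicate 1, so it passed the threshold of 0.5 in only the first of these. The pore-forming Kv4 subunit *Kcnd3* spanned 107 to 125 CPM in controls (median 118) and 125 to 156 CPM after knockdown (median 149). The other 5 knockdown libraries lay above *Neuid* KD replicate 1, which was at the top of the control range, with a log2 change of 0.32 (edgeR adjusted p = 0.0012). It was 0.28 within the libraries of higher background, where the adjusted p was 0.15, the highest of all alternatives (lowest 9.9e-07), and 0.32 within those of lower background. Exons of *Kcnd3* overlap the antisense gene Kcnd3os. *Kcnd2*, the main Kv4 pore of pyramidal cell dendrites, had the higher level per length of the pair, at 13.2 CPM per kb in control libraries. It did not pass the test, with 58.5 to 73.1 CPM in control (median 68.4) and 63.3 to 76.6 CPM in *Neuid* KD libraries (median 73.9) and a log2 change of 0.09 (edgeR adjusted p = 0.517). Of the other KChIP genes, *Kcnip2* had the highest level per length, 13.6 CPM per kb, with a log2 change of 0.09 (edgeR adjusted p = 0.328). *Kcnip4* was low, at 2.89 to 5.25 CPM in control (median 4.47) and 4.55 to 6.94 CPM in *Neuid* KD libraries (median 5.78), and its log2 fold change of 0.44 did not pass (edgeR adjusted p = 0.0994). The adjusted p was 0.0483 by DESeq2, 0.0271 with 1 RUVs factor and 0.0265 with the background covariate, in a range of 0.0265 to 0.693 over all alternatives, and the estimate was 0.34 and 0.51 within the libraries of higher and lower background. Exons of *Kcnip4* overlap 5730480H06Rik and Gm20700 on the opposite strand. The groups overlapped for both *Kcnip2* and *Kcnip4*.

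*Kcnma1*, the pore of the BK channel that opens on calcium and depolarization together, spanned 239 to 299 CPM in controls (median 283) and 267 to 382 CPM after knockdown (median 370). Of its knockdown libraries, replicate 1 lay inside the control range and the other 5 above it. The log2 fold change was 0.36 (edgeR adjusted p = 0.0074, standard error 0.081), and 0.34 and 0.31 within the libraries of higher and lower background. The adjusted p was 0.0913 within the libraries of higher background and 0.0581 without *Neuid* KD replicate 2, and over all alternatives it ran from 1.5e-07 to 0.155, the latter with no filter on low counts. Its exons overlap 4930519K11Rik on the opposite strand.

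**Figure D2:**
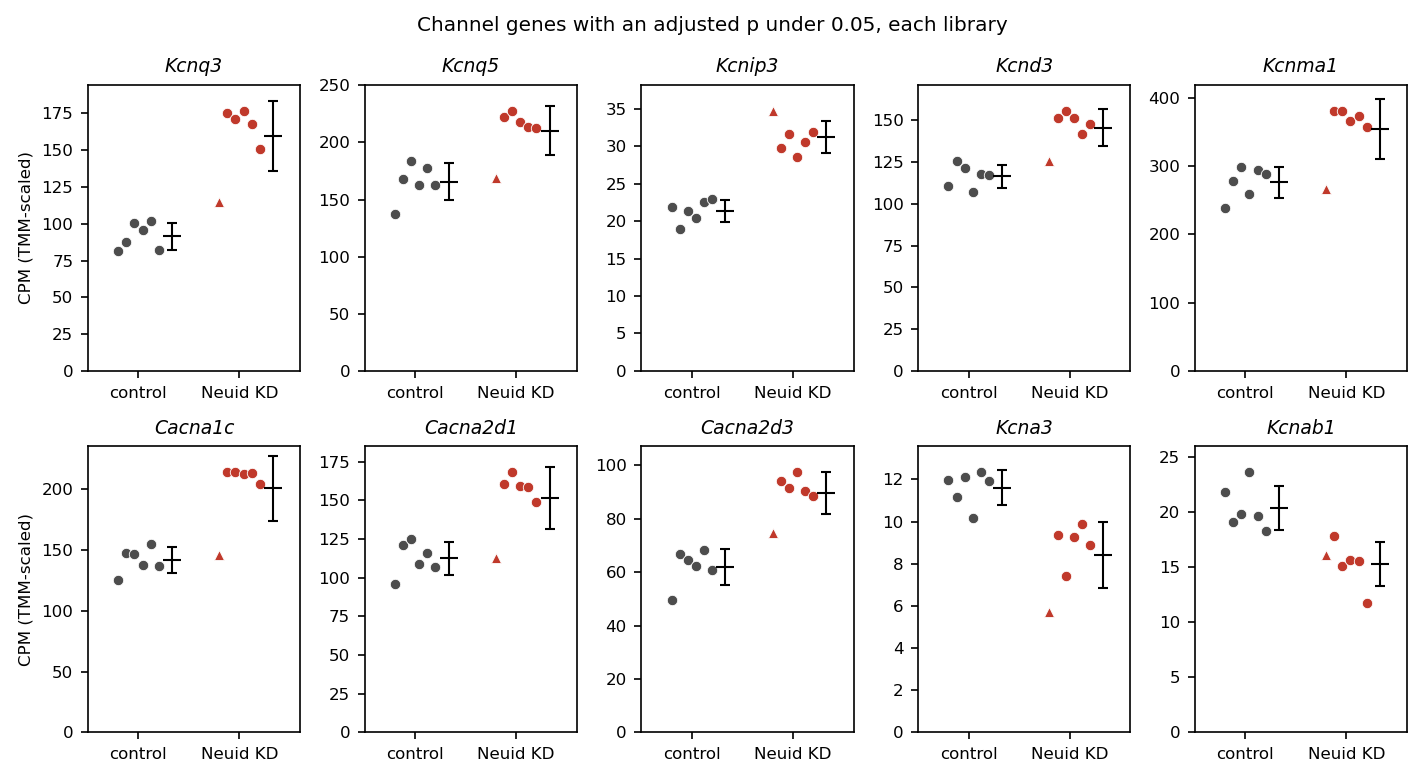
Level in CPM of the 10 channel genes with an adjusted p under 0.05 in each of the 6 control (grey) and 6 *Neuid* KD (red) libraries, with the mean and SD in black; the triangle is *Neuid* KD replicate 1 and each axis starts at 0. *Neuid* KD replicate 1 is the lowest red point for *Kcnq3*, *Cacna1c*, *Kcnma1* and 5 further genes, and the highest for *Kcnip3*.

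Of the 15 calcium channel genes, 3 were higher and none was lower with an adjusted p under 0.05 in edgeR. At an unadjusted p under 0.05, 1 was lower, as was 1 by DESeq2, and these counts have no share over all tested genes beside them. *Cacna1c* encodes the pore of the L-type channel that signals from dendrites to the nucleus, and lies on chromosome 6 (118587240 to 119196418, minus strand, ENSMUSG00000051331). It spanned 126 to 155 CPM in controls (median 142) and 146 to 214 CPM after knockdown (median 213). *Neuid* KD replicate 1 was inside the control range, and the other 5 libraries, all at 204 CPM or more, were above it. Mean and SD over the 6 libraries went from 142 ± 10.4 CPM up to 201 ± 26.9 CPM, and the estimated log2 change was 0.504 (edgeR adjusted p = 5.1e-04, standard error 0.0832), just past the threshold, which it passed in 5 of the 21 alternatives. Its log2 fold change was 0.54 without *Neuid* KD replicate 1, 0.47 within the libraries of higher background and 0.47 within those of lower background. *Cacna2d3* encodes an α2δ subunit, an extracellular protein that brings calcium channels to the membrane, and lies on chromosome 14 (28904943 to 29721864, minus strand, ENSMUSG00000021991). It spanned 49.5 to 68.4 CPM in controls (median 63.4) and 74.9 to 97.5 CPM after knockdown (median 90.9). The groups did not overlap, and replicate 1 was the lowest library of each group. Mean and SD over the 6 libraries went from 62.0 ± 6.76 CPM up to 89.5 ± 7.84 CPM, and the estimated log2 change was 0.53 (edgeR adjusted p = 1.1e-04, standard error 0.0755). It was 0.51 within the 7 libraries of higher background and 0.48 within the 5 of lower background. *Cacna2d1*, an α2δ subunit bound by gabapentin, had the highest level per length of its role, at 9.06 CPM per kb in control libraries. It spanned 96.2 to 125 CPM in controls (median 113) and 113 to 168 CPM after knockdown (median 159). Again *Neuid* KD replicate 1 was inside the control range and the other 5 were above it, with a log2 change of 0.43 (edgeR adjusted p = 0.0028), 0.38 within the libraries of higher background and 0.40 within those of lower background. The third α2δ member, *Cacna2d2*, was at 0.477 CPM per kb in control libraries, with a log2 change of 0.003 (edgeR adjusted p = 0.996) and an exon overlap with Gm17141 on the opposite strand.

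The other calcium channel genes did not pass the test. *Cacna1b*, the pore of the presynaptic N-type channel, had the highest level per length of the high-voltage pores, 22.4 CPM per kb in control libraries. It spanned 205 to 242 CPM in controls (median 216) and 186 to 271 CPM after knockdown (median 262). The 5 *Neuid* KD libraries other than replicate 1 were above every control library and replicate 1 was below them all, with a log2 change of 0.17 (edgeR adjusted p = 0.266). The adjusted p was 0.0143 without replicate 1, in a range of 0.0132 to 0.864 over all alternatives, and the estimate was 0.12 and 0.13 within the libraries of higher and lower background. The P/Q-type, R-type and other L-type pores *Cacna1a*, *Cacna1e* and *Cacna1d* had log2 fold changes of 0.11, -0.01 and 0.04. Of the 3 T-type pores, which open near rest and drive burst firing, *Cacna1h* had the highest level per length, 9.29 CPM per kb, and a log2 change of 0.01 (edgeR adjusted p = 0.963) whose sign changed with the scaling, and its exons overlap Tpsg1 on the opposite strand. The 4 cytoplasmic β subunits, led per length by *Cacnb3* at 23.5 CPM per kb, had log2 fold changes between -0.17 (*Cacnb4*) and -0.03 (*Cacnb3*), with adjusted p of 0.0893 or more.

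The 2 genes that fell in edgeR were *Kcna3* and *Kcnab1*, a pore and a β subunit of Kv1 channels, which act on the threshold of firing in axons. *Kcna3* spanned 10.2 to 12.4 CPM in controls (median 12.0) and 5.73 to 9.88 CPM after knockdown (median 9.08). All knockdown libraries were below all controls, with *Neuid* KD replicate 1 the lowest. The log2 fold change was -0.44 (edgeR adjusted p = 0.0096, standard error 0.103). It was -0.42 within the 7 libraries of higher background and -0.52 within the 5 of lower background. The adjusted p within the former was 0.105, the highest of all alternatives (lowest 6.0e-05). *Kcnab1*, a cytoplasmic β subunit that speeds inactivation of Kv1 channels, spanned 18.3 to 23.6 CPM in controls (median 19.7) and 11.7 to 17.8 CPM after knockdown (median 15.5). The groups did not overlap, with *Neuid* KD replicate 6 the lowest, and the log2 fold change was -0.41 (edgeR adjusted p = 0.0047, standard error 0.0864). It was -0.51 within the libraries of higher background and -0.32 within those of lower background. An exon of *Kcnab1* overlaps A330015K06Rik on the opposite strand. *Kcna1* had the highest level per length of the Kv1 pores, 17.2 CPM per kb in control libraries, and did not pass, with a log2 change of -0.10 (edgeR adjusted p = 0.527). The remaining Kv1 pores, *Kcna2*, *Kcna4* and *Kcna6*, had log2 fold changes between -0.25 and 0.09. *Kcna4*, named after its values were seen, spanned 75.4 to 89.1 CPM in controls and 52.6 to 74.7 CPM after knockdown, so that the groups did not overlap while its edgeR adjusted p was 0.0507. The adjusted p of *Kcna4* was 0.0021 with the background covariate, 0.0087 within the libraries of lower background and 0.219 within those of higher background, with estimates of -0.25, -0.22 and -0.28. The other β subunit, *Kcnab2*, at 14.4 CPM per kb in control libraries, had a log2 change of 0.16 (edgeR adjusted p = 0.0961) and shares exon sequence with Gm16334 on the same strand. Its adjusted p was 0.0318 with a filter of 1 CPM, 0.0214 with 1 RUVs factor and 0.0198 with the background covariate, in a range of 0.0198 to 0.666 over all alternatives. The estimate was 0.19 within the libraries of higher background and 0.06 within those of lower background.

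None of the 7 sodium channel genes passed the test in edgeR. Of the 7, 4 were lower at an unadjusted p under 0.05 and 2 were lower by DESeq2. Shares over all tested genes are not given for these counts, so they cannot be read as particular to the sodium channel genes. With the background covariate 3 were lower, *Scn2a*, *Scn3a* and *Scn2b* (adjusted p = 0.0049, 0.0155 and 0.0329), and all 3 were lower within the libraries of lower background. None of the 3 passed within the libraries of higher background (edgeR adjusted p = 0.628, 0.542 and 0.893). Estimates for *Scn3a* and *Scn2b* were -0.20 and -0.11 there, and -0.16 and -0.26 within the libraries of lower background. *Scn2a*, the pore of the axon initial segment in young excitatory neurons, had the highest level per length of all 52 genes, 47.8 CPM per kb in control libraries. It spanned 575 to 655 CPM in controls (median 606) and 452 to 581 CPM after knockdown (median 564). The groups overlapped, and *Neuid* KD replicate 1 was far below the other libraries. The log2 fold change was -0.16 (edgeR adjusted p = 0.142, standard error 0.0614), and it was -0.19 and -0.18 within the libraries of higher and lower background. The adjusted p was under 0.05 in 8 of 21 alternatives, among them 0.0012 under upper-quartile normalization, 0.0341 by DESeq2, 0.0049 with the background covariate and 0.0236 without *Neuid* KD replicate 1, in a range of 1.3e-04 to 0.859. The other pores, *Scn1a*, *Scn3a* and *Scn8a*, had log2 fold changes between -0.15 and 0.06. Of the β subunits, which anchor and modulate the pores, *Scn3b* had the highest level per length, 13.9 CPM per kb, and a log2 change of -0.05 (edgeR adjusted p = 0.774). *Scn4b* averaged 0.762 ± 0.729 CPM in controls (SD, n = 6), and the standard error on its log2 fold change was 0.711, and 0.371 with the background covariate. Its highest levels were 2.09 CPM in control replicate 4 and 1.52 CPM in *Neuid* KD replicate 1, libraries with 592 and 616 CPM of background.

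Among the other potassium channel genes, *Kcnh5* had a large estimate without passing the test. It encodes a pore of the ether-à-go-go (EAG) family and spanned 0.786 to 2.74 CPM in controls (median 2.28) and 2.76 to 3.71 CPM after knockdown (median 3.59). By a narrow margin the groups did not overlap, and the log2 fold change was 0.74 (edgeR adjusted p = 0.062, standard error 0.233). The adjusted p was 0.0086 by DESeq2, in a range of 0.0014 to 0.31 over all alternatives, and 0.0475 and 0.0464 without control replicates 4 and 5. The estimate was 0.64 within the libraries of higher background and 1.07 within those of lower background. *Kcnh3* had the highest level per length of the EAG family, 8.00 CPM per kb in control libraries, and a log2 change of 0.15 (edgeR adjusted p = 0.155), with exons that overlap Mcrs1 on the opposite strand. It was 0.20 and 0.02 within the libraries of higher and lower background. The delayed-rectifier pore *Kcnb2*, of the Kv2 family, had a log2 change of 0.23 (edgeR adjusted p = 0.171). The adjusted p was 0.0050 without *Neuid* KD replicate 1, in a range of 0.0027 to 0.877 over all alternatives, and the estimate was 0.12 and 0.30 within the libraries of higher and lower background. *Kcnc1*, the leading member per length of the Kv3 family of fast-spiking neurons at 9.72 CPM per kb, had a log2 change of 0.07 (edgeR adjusted p = 0.766). The 5 electrically silent subunits, which form channels only together with Kv2 pores, had log2 fold changes between -0.35 (*Kcnf1*) and 0.07 (*Kcng1*, the leading member at 5.57 CPM per kb). *Hcn2*, a channel of the hyperpolarization-activated current, was at 23.7 CPM per kb in control libraries and had a log2 change of -0.004 (edgeR adjusted p = 0.984). It spanned 68.0 to 82.2 CPM in controls and 65.8 to 82.5 CPM after knockdown, so that the ranges nearly coincided. The rule for named genes took every channel gene with an adjusted p under 0.05 and the 10 largest estimates. It therefore bounded the values of the other 26 genes in advance. Their log2 fold changes lay between -0.35 and 0.11, with a lowest adjusted p of 0.0507. Of the 26, 21 were below 0, where over all 52 channel genes 28 were, so the 21 cannot be read as a trend. With the background covariate 5 of the 26 were lower, namely *Kcna4*, *Cacnb4*, *Scn3a*, *Kcnf1* and *Scn2b*, named after their values were seen, with adjusted p between 0.0021 and 0.0329.

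The 8 higher genes were mostly long on the chromosome, a feature looked at after the values were seen. From first to last exon they spanned 65.6 to 817 kb (median 502 kb), and the other 44 channel genes 1.90 to 1135 kb (median 76.5 kb). Of the 15 channel genes over 300 kb, 6 were higher and none was lower by an adjusted p under 0.05 in edgeR (0 lower at an unadjusted p under 0.05 and 0 by DESeq2), of the 13 from 100 to 300 kb 1 was higher and 1 was lower, and of the 24 under 100 kb 1 was higher and 1 was lower. *Kcnq3*, at 300.3 kb, lay just past the limit of 300 kb. Over all tested protein-coding genes, 27.4% of the 543 genes over 300 kb were higher, as were 13.4% of those from 100 to 300 kb and 6.48% of those under 100 kb. The shares of lower genes were 2.95%, 4.42% and 2.79% in the same order. The part of gene span in the result was not tested.

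**Figure D3:**
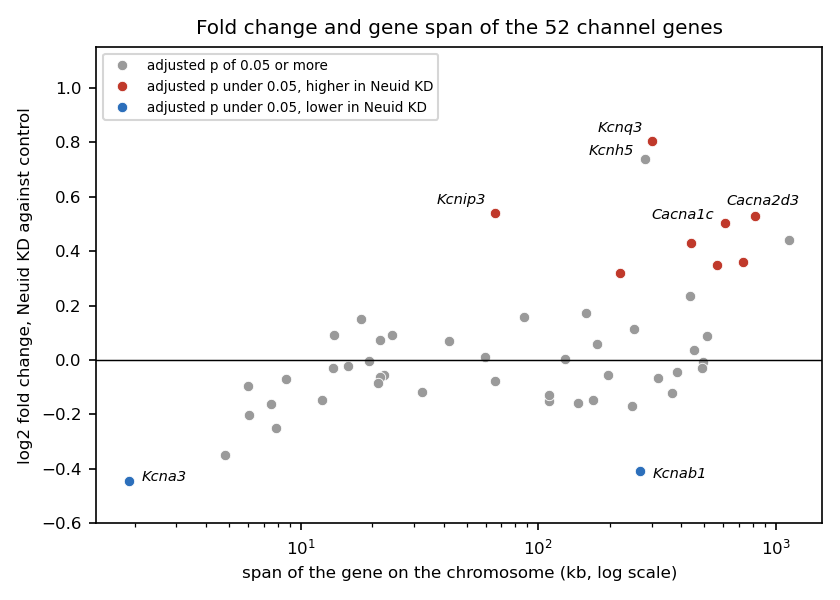
Log2 fold change in *Neuid* KD against control (vertical axis) and the span of the gene in kb (horizontal axis, log scale) for the 52 channel genes, 1 point each; red points are higher and blue points lower with an adjusted p under 0.05. Of the 8 red points, 6 lie above 300 kb.

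RefSeq promoter sequences on GRCm38.p6 matched 40 of the 52 channel genes, with 63 entries. The 250 bases before the RefSeq start were searched on both strands for the GC box GGGCGG, the TATA box TATAAA, the CCAAT box CCAAT and the cAMP response element TGACGTCA. The GC box was in 27 of the 63 entries, and in 32.7% of all 32851 promoters. The TATA box was in 2 entries (12.4% of all promoters), the CCAAT box in 19 (33.8%) and the cAMP response element in 0 (1.55%). The 7 higher genes with an entry had 12 entries, of which 5 held a GC box and 4 a CCAAT box. The sequences of the 3 α2δ genes, chosen after their values were seen, are shown as a description of 1 role, with no test of a difference between them. They run 5′ to 3′ on the strand of the gene, with GC boxes of either strand in capitals, at chr5:15934441-15934690 (plus strand) for *Cacna2d1*, chr14:29721865-29722114 (minus strand) for *Cacna2d3* and chr9:107399630-107399879 (plus strand) for *Cacna2d2*. The stretch of *Cacna2d2* lies inside the gene as GENCODE annotates it, from 107399612, while the other stretches end at the GENCODE start. *Cacna2d1* has 6 GC boxes, *Cacna2d3* 4 and *Cacna2d2* 1, and G and C make up 82.4%, 80.0% and 74.4% of the bases.
Cacna2d1: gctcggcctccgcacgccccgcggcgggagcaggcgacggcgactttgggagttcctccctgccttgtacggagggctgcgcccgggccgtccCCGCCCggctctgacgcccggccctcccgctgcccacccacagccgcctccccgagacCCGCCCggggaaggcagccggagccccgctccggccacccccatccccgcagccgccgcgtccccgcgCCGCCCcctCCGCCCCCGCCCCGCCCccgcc
Cacna2d3: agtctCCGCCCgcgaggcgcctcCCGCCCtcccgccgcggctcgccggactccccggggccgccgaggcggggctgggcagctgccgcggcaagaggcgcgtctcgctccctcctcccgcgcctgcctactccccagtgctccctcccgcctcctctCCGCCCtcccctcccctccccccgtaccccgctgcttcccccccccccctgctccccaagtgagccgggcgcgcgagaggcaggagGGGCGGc
Cacna2d2: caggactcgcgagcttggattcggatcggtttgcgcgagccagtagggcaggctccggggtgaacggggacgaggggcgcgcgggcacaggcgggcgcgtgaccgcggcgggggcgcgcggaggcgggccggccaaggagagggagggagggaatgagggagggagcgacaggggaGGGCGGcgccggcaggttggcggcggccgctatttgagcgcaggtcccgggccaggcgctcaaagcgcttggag

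Other genes of the same families, not among the 52, were read as a list of 42 annotated genes, of which 35 were tested. By the rule with the fold threshold, 1 was higher and none was lower past -0.5 in edgeR (0 past -0.5 at an unadjusted p under 0.05 and 0 by DESeq2). Without the fold threshold none was lower in edgeR, 3 were lower at an unadjusted p under 0.05 and 2 by DESeq2. The counts at an unadjusted p and by DESeq2 have no share over all tested genes beside them. The higher gene was *Kcne1l*, which encodes a single-pass accessory subunit of Kv7 channels. It spanned 4.03 to 6.43 CPM in controls (median 4.90) and 10.2 to 13.7 CPM after knockdown (median 11.7). The groups did not overlap, and the log2 fold change was 1.23 (edgeR adjusted p = 5.0e-07, standard error 0.11). It was 1.33 and 1.06 within the libraries of higher and lower background. Of 14 scaffolds and modulators of voltage-gated channels, 3 were higher and 1 lower by an adjusted p under 0.05, and 1 passed the fold threshold. *Cntnap2*, the adhesion protein that clusters Kv1 channels beside the node of Ranvier, spanned 65.4 to 75.5 CPM in controls (median 72.6) and 86.1 to 115 CPM after knockdown (median 106). The groups did not overlap, and the log2 fold change was 0.54 (edgeR adjusted p = 1.9e-05, standard error 0.0658). It was 0.45 and 0.59 within the libraries of higher and lower background, and no gene of this list passed the fold threshold in the former or under upper-quartile normalization.

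Potassium channels that are not opened by voltage alone were read in the same way, with 28 of 34 genes tested, 2 higher and 1 lower by the rule with the fold threshold. By the adjusted p alone 3 were higher and 5 lower in edgeR, and 3 higher and 6 lower by DESeq2. *Kcnj10*, the inward rectifier through which astrocytes take up potassium, rose from a median of 52.8 CPM (42.4 to 57.5) to a median of 105 CPM (101 to 119), a log2 change of 1.04 (edgeR adjusted p = 7.0e-09). *Kcnj16*, its partner subunit, rose from a median of 3.31 CPM (1.20 to 4.53) to a median of 7.37 CPM (5.66 to 10.8), a log2 change of 1.32 (edgeR adjusted p = 6.8e-04). *Kcnk9*, the tandem-pore leak channel TASK3, fell from a median of 66.0 CPM (59.6 to 82.8) to a median of 35.9 CPM (28.5 to 40.1), a log2 change of -0.97 (edgeR adjusted p = 6.8e-07). For each of the 3, the control and *Neuid* KD libraries did not overlap. Within the libraries of higher background the estimates for *Kcnj10*, *Kcnj16* and *Kcnk9* were 1.12, 1.19 and -1.04, and within those of lower background 0.88, 1.80 and -0.89.

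Markers of astrocytes moved with the groups. All 13 shared neuronal markers were tested, and 2 were higher and 1 lower by an adjusted p under 0.05. Their summed level spanned 6881 to 8047 CPM in controls (median 7681) and 6805 to 8117 CPM after knockdown (median 7907), and the most abundant per length was Tubb3. Of 7 markers of excitatory neurons, led by Neurod6, 1 was higher and 2 were lower, and their sum had a median of 1837 CPM in controls and 2095 CPM after knockdown. None of the 6 tested markers of inhibitory neurons passed in edgeR, and none by DESeq2. At an unadjusted p under 0.05, for which no share over all tested genes is given, 1 was higher and 2 were lower. The summed level of the inhibitory markers had a median of 185 CPM in controls and 187 CPM after knockdown. All 12 astrocyte markers were higher, led per length by Apoe, and their sum spanned 1933 to 2451 CPM in controls (median 2259) and 4530 to 5064 CPM after knockdown (median 4913). Of 6 markers of oligodendrocyte precursors, led by Olig1, 2 were higher (Olig1 and Olig2) and 4 did not pass, with estimates down to -0.77 (Gpr17), and their sum had a median of 106 CPM in controls and 269 CPM after knockdown. Sums over the 5 markers of oligodendrocytes and the 5 of microglia had medians in control libraries of 14.1 and 9.09 CPM and in *Neuid* KD libraries of 10.4 and 6.97 CPM. The 3 endothelial markers summed to a median of 4.11 CPM in controls and 2.39 CPM after knockdown, and the 5 of fibroblasts and mural cells to 34.4 and 30.5 CPM. Of these lists, *Mbp* of oligodendrocytes was lower, and none of the 3 tested microglial, 2 endothelial and 5 fibroblast or mural markers passed in edgeR (0 at an unadjusted p under 0.05 and 0 by DESeq2). No marker was at 0 in all libraries. The part of cell composition in the channel results was not tested.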

How the data were processed

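The deposited gene counts came from reads demultiplexed with bcl2fastq and aligned with STAR; the strand setting and annotation used for counting are not stated. Genes passing edgeR's filterByExpr (19578) were scaled by TMM and tested with edgeR's quasi-likelihood test, Benjamini-Hochberg adjusted over all of them. A gene was called with an adjusted p under 0.05 and a log2 fold change past 0.5 in either direction, and counts with the adjusted p alone are also given. The rule for named genes took channel genes with an adjusted p under 0.05, the 10 largest estimates, and the highest level per length of each role. The members and gene lists were chosen with earlier results of these data known. Alternatives were DESeq2, upper-quartile scaling, other filters, 1 RUVs factor, background, a replicate block and leaving out each library.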

Additional observations from a re-analysis of the deposited data

Results flagged for a closer look

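In 15 of 96 group checks, 1 library lay far from the other 5 of its group, by a criterion that chance meets in about 1 in 20 groups. *Neuid* KD replicate 1 was the lowest of its group in 12 of them. It gave 146 CPM for *Cacna1c* (204 to 214 CPM in the others), 113 CPM for *Cacna2d1* (149 to 168), 169 CPM for *Kcnq5* (212 to 228) and 267 CPM for *Kcnma1* (358 to 382). It gave 186 CPM for *Cacna1b* (248 to 271), 75.0 CPM for *Cacna1h* (91.8 to 99.6), 29.1 CPM for *Kcnb2* (43.4 to 48.5) and 70.9 CPM for *Kcnc1* (98.4 to 105). Its summed level was 3672 CPM over the 52 channel genes (4599 to 4776 in the others), 773 CPM over the further voltage-gated channel genes (892 to 927), 2089 CPM over the channel partners (2620 to 2740) and 1928 CPM over the markers of excitatory neurons (2063 to 2131). The same library was the highest of its group for the sum of microglial markers, at 10.4 CPM (5.70 to 7.38 in the others). *Neuid* KD replicate 6 was the highest for *Kcng1*, at 32.0 CPM (23.7 to 26.5 in the others). *Neuid* KD replicate 3 was the lowest for *Kcnh5*, at 2.76 CPM (3.46 to 3.71 in the others).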

How the results depend on the processing

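Of 15 named genes with an adjusted p under 0.05, 10 channel genes and 5 of other lists, 11 kept it and their direction in every alternative. The 4 that lost it at least once were all channel genes, *Kcna3*, *Kcnd3*, *Kcnq5* and *Kcnma1*. The log2 fold change of *Neuid* stayed between -1.93 and -1.74. The count of channel genes higher past 0.5 was 1 under upper-quartile scaling and 2 in libraries with background under 100 CPM, and 2 to 5 when leaving out 1 library. The count lower past -0.5 was 1 under upper-quartile scaling and 1 in the libraries of either background level, and 0 to 1 when leaving out 1 library. By the adjusted p alone, the higher count was 5 with no filter, 13 with 1 RUVs factor, 13 with the background covariate and 5 with background of at least 100 CPM, and 6 to 10 when leaving out 1 library. The lower count was 7 by DESeq2, 12 under upper-quartile scaling, 8 with a filter of 1 CPM and 8 with 1 RUVs factor. It was 8 with the covariate, 1 with background of at least 100 CPM and 8 with background under 100 CPM. With the replicate block it was 4, and 2 to 5 when leaving out 1 library. Shares over all tested genes are given only for the main fit and the covariate, and not for counts at an unadjusted p. Under upper-quartile scaling the median log2 fold change was -0.07 over the channel genes and -0.09 over all tested genes. Further voltage-gated channel genes called were 2 with 1 RUVs factor, 3 with the covariate and 2 with background under 100 CPM, and channel partners called were 0 under upper-quartile scaling and 0 with background of at least 100 CPM. The log2 fold change of *Cacna1h* was -0.008147 by DESeq2, -0.048669 under upper-quartile scaling, -0.00369 with a filter of 1 CPM, -0.007448 with 1 RUVs factor, -0.002756 with the covariate and -0.061841 with background under 100 CPM, and -0.030179 to 0.048867 when leaving out 1 library. *Hcn2* was at 0.000908 with no filter and 0.001197 with background of at least 100 CPM, and at -0.041816 to 0.019772 when leaving out 1 library. With background under 100 CPM, *Kcnip2* was at -0.005492 and *Kcng1* at -0.152306, and *Kcng1* was at -0.019437 to 0.115258 when leaving out 1 library. The cause was not tested, and fits within a background level hold fewer libraries. With replicates of the same number as blocks, 3 channel genes were higher past 0.5 and 0 lower, and *Scn2a* and *Kcnip4* had adjusted p of 0.0469 and 0.0276. Correlations between libraries of the same number ran from -0.637 to 0.774, and 2 of 6 control libraries matched best the *Neuid* KD library of their number, a hint from the data and not the design. At depths of 11152556 to 30914714 reads, *Scn4b*, the channel gene of lowest level per length, had 3 to 45 counts in a library.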
